A study of Mus musculus with 8 samples.

Results

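The neutrophil genes examined in the lung libraries were 9 of the 52195 genes in the deposited table. They were taken by symbol as 5 genes of mature neutrophils (S100a8, S100a9, Retnlg, Csf3r and Cxcr2) and 4 genes of granule precursors (Camp, Ngp, Mpo and Elane), and all 9 symbols were found. Poly(A) mRNA was sequenced from liver, small intestine, lung and kidney of C57BL/6 mice (male C57BL/6J in the study's methods) aged 6 to 10 weeks, with 2 libraries per tissue, and the labels name no treatment or genetic change in any group. The RNA came from ground pieces of whole tissue, so that each library holds every cell type of the organ and any blood left in its vessels. By the study's account the libraries of a tissue came from separate mice, and all of these tissues were taken from each mouse. The members were selected on their levels in these libraries, including the ratio of lung replicate 2 to lung replicate 1, and that ratio and their excess in lung are therefore given as a description, with no test.

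Neutrophils are short-lived white blood cells that are made in the bone marrow and held in number in the small vessels of the lung. Their granule proteins are transcribed in turn as the cell matures: primary (azurophil) granule genes in promyelocytes, secondary granule genes in myelocytes and metamyelocytes, and surface receptors mostly later. A granule protein can therefore be abundant in a cell that no longer carries its mRNA.

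Among the mature genes, S100a8 and S100a9 encode the subunits of calprotectin, the main calcium-binding protein of the neutrophil cytosol. Retnlg encodes a secreted resistin-like protein of neutrophils. Csf3r is the receptor for G-CSF, the cytokine that drives neutrophil production, and Cxcr2 is a chemokine receptor that draws neutrophils out of the marrow and into tissue. Among the precursor genes, Camp encodes the cathelicidin antimicrobial peptide and Ngp the neutrophilic granule protein, both of secondary granules. Mpo encodes myeloperoxidase and Elane neutrophil elastase, both of primary granules.

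The members were spread over the genome. In GENCODE M21 on GRCm38, S100a8 (chr3:90668978-90670035) and S100a9 (chr3:90692632-90695721) were neighbours on opposite strands, and Camp (chr9:109847379-109849617) and Ngp (chr9:110419747-110423012) shared chromosome 9. Retnlg was at chr16:48872621-48874496, Csf3r at chr4:126024550-126044440, Cxcr2 at chr1:74153989-74161246, Mpo at chr11:87793581-87804413 and Elane at chr10:79886247-79888215. All were annotated as protein coding. Of the exon bases of Mpo, 15.0% lay under an annotated gene on the other strand, Gm11505, and the other 8 members shared no exon base with another gene.

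The start regions of the 5 members with the largest well-counted differences between the lung libraries are printed here to show the sequence at the start of the genes that the comparison turns on. C/EBP factors and PU.1 are known to act in the granulocyte lineage. Each run ends before the annotated start of the gene and begins 250 bases before the RefSeq start (GRCm38.p6), with bases after the earlier GENCODE start left out. The runs are chr3:90668821-90668977 (+ strand), chr3:90695722-90695971 (− strand), chr16:48872358-48872607 (+ strand), chr9:109849618-109849706 (− strand) and chr9:110419558-110419746 (+ strand), all read 5′ to 3′ along the gene. Capitals mark matches, on either strand, to TTNNGNAA (a loose C/EBP pattern) or GAGGAA (a PU.1 core).
S100a8: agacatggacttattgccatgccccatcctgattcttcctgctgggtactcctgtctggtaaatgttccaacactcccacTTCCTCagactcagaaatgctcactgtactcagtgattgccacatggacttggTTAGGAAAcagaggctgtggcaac
S100a9: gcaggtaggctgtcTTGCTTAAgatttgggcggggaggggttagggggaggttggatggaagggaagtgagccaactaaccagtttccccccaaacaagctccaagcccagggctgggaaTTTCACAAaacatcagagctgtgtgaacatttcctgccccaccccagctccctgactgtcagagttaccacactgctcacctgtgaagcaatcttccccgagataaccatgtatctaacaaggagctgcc
Retnlg: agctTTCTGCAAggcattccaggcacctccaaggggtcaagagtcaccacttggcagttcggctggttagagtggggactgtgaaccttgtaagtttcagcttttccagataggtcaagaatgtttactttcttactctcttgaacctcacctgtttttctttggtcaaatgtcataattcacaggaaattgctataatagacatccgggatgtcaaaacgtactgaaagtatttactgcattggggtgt
Camp: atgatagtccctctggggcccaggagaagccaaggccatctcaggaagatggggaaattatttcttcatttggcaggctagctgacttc
Ngp: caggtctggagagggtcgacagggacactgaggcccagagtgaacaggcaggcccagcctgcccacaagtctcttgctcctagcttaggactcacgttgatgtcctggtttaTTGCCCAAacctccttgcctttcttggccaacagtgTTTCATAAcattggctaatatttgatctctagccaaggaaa
In the full window of 250 bases, the C/EBP pattern was found in 4 of 9 members (S100a8, S100a9, Retnlg and Ngp), and in 36.8% of 32851 RefSeq start regions of the same length. Ngp held 3 matches and S100a9 held 2. The PU.1 core was found in 5 of 9 members (S100a8, Csf3r, Cxcr2, Mpo and Elane), against 23.3% of all start regions. TATAAA was found in S100a8 alone, 30 bases before the RefSeq start, against 12.4% of all start regions. Camp held none of the patterns in this window. These are letter matches in a short window, and no binding was measured.

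The deposited values are FPKM, which is a read count scaled by exon length and library size, and the whole reads behind them were recovered from their steps. Depth was 9764426 reads for lung replicate 1 and 12427339 for lung replicate 2, and 9164187 to 21444675 over the 8 libraries. The lung libraries also differed in developmental transcription factor genes. Hoxa10 had 591 reads in lung replicate 1 and 0 in replicate 2, and Pou3f3 had 680 and 4. The liver libraries had 510 and 696 reads of Hoxa10, and the kidney libraries 571 and 1231. Lung replicate 1 therefore stood apart from lung replicate 2 in such genes, which it shared with liver and kidney libraries. Kap, a kidney tubule gene, was 82.0 and 17.5 FPKM in the lung libraries against 15159 and 31665 FPKM in kidney, and Alb, the albumin gene of liver, 69.0 and 39.0 FPKM against 34646 and 29371 FPKM in liver. Whether RNA or reads of another sample entered lung replicate 1, and the part of this in the neutrophil values, was not tested; it bears on every lung level and ratio given here. Of the 16328 genes that reached an FPKM of 1 in 2 libraries or more, 2.58% were 2-fold or more higher in lung replicate 2 and 5.24% were 2-fold or more lower.

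The calprotectin genes were the most abundant members. S100a8 was 23.6 FPKM in lung replicate 1 and 110.5 FPKM in lung replicate 2, from 160 and 953 reads. The other 6 libraries were between 0 FPKM and 0.837 FPKM, with 13 reads in all. S100a9 was 36.3 FPKM and 214 FPKM in the lung libraries, from 185 and 1391 reads, and between 0.179 and 1.88 FPKM elsewhere, with 20 reads in all. Both lung libraries lay above every other library for both genes, by at least 28.2-fold for S100a8 and 19.3-fold for S100a9. The mean was 67.1 ± 61.4 FPKM for S100a8 and 125 ± 126 FPKM for S100a9 (SD, n = 2), so that the spread between the lung libraries was about as large as the mean.

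**Figure D1:**
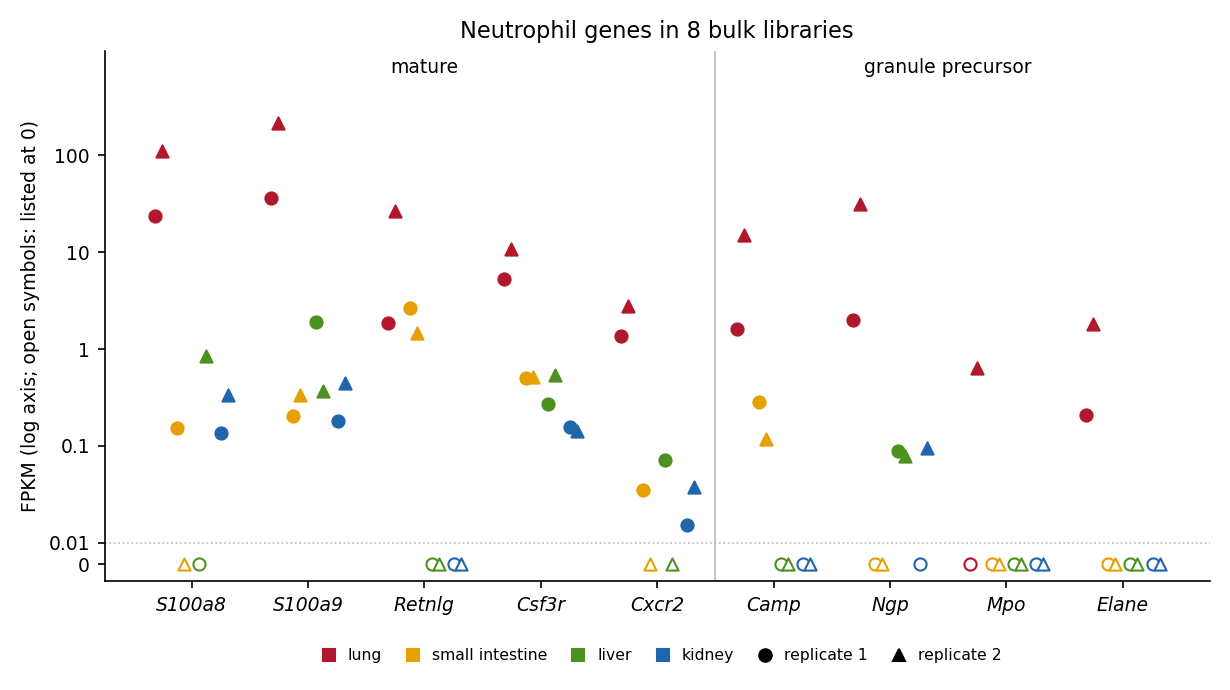
Deposited FPKM (log axis) of the 9 members in each of the 8 libraries, coloured by tissue, with circles for replicate 1, triangles for replicate 2 and open symbols on the lowest line for values listed at 0. The lung symbols are the highest for every member in replicate 2, whereas Retnlg in lung replicate 1 (1.85 FPKM) lies below small intestine replicate 1 (2.64 FPKM) and Mpo in lung replicate 1 is listed at 0.

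The receptor genes were lower and closer between the lung libraries. Csf3r was 5.28 and 10.8 FPKM in lung, from 186 and 483 reads. It was also the member most widely read outside lung, at 0.503 and 0.514 FPKM in small intestine, 0.272 and 0.537 FPKM in liver, and 0.155 and 0.144 FPKM in kidney. Cxcr2 was 1.38 and 2.77 FPKM in lung, from 41 and 105 reads, with no more than 2 reads in any other library. The lower lung value was 9.83 times the highest other value for Csf3r and 19.2 times for Cxcr2. In order of mean FPKM, Csf3r ran from lung through small intestine and liver to kidney. Lung did not overlap small intestine, and liver did not overlap kidney, whereas small intestine and liver overlapped and changed places under median-of-ratios scaling.

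Retnlg was the mature member whose lung libraries did not both lie above the rest. It was 1.85 FPKM in lung replicate 1 and 26.6 FPKM in lung replicate 2, from 11 and 201 reads. In small intestine it was 2.64 and 1.45 FPKM, from 15 and 10 reads, and it had no read in liver or kidney. The lower lung library therefore fell between the small intestine libraries. Retnlg belongs to the resistin family, and its relatives in lung went the other way: Retnla was 122 FPKM in replicate 1 and 68.8 FPKM in replicate 2, and Retn was 3.63 and 2.40 FPKM. Retnlb, the intestinal family member, was 0.307 and 0.127 FPKM in small intestine. The counting of reads that could match more than 1 of these genes is not given in the sources used here.

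The secondary granule genes were low in lung replicate 1 and clear in lung replicate 2. Ngp was 2.01 and 31.4 FPKM, from 24 and 477 reads, with 4 reads over the other 6 libraries. Camp was 1.62 and 14.9 FPKM, from 12 and 140 reads, with 3 reads elsewhere, all in small intestine. Ngp in lung replicate 1 was still 21.3 times the highest other library, and Camp 5.75 times.

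The primary granule genes were near the limit of detection. Mpo had 0 reads in lung replicate 1 and 27 reads (0.635 FPKM) in lung replicate 2. Elane had 2 reads (0.208 FPKM) and 22 reads (1.80 FPKM). Neither had a read in the other 6 libraries. A count of 0 allows up to 3 reads, which was 0.0897 FPKM for Mpo in lung replicate 1, so that Mpo was not detectable there at this depth rather than shown to be absent.

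All 9 members were higher in lung replicate 2, and the background share of 2.58% is given only for scale because the members were chosen on this ratio. Intervals here are exact 95% limits from the recovered reads, and they cover counting error only, not differences between mice. Csf3r was 2.04 times higher (1.72 to 2.43) and Cxcr2 2.01 times (1.39 to 2.96). S100a8 was 4.68 times higher (3.95 to 5.57) and S100a9 5.91 times (5.06 to 6.92). Camp was 9.17 times higher (5.08 to 18.2), Retnlg 14.4 times (7.85 to 29.2) and Ngp 15.6 times (10.4 to 24.6). Elane was 8.64 times higher (2.12 to 75.8), an interval set by its 2 reads in replicate 1. Mpo was at least 7.07-fold higher with replicate 1 set at the floor of 3 reads, and the lower counting limit from its 0 and 27 reads was 5.37.

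**Figure D2:**
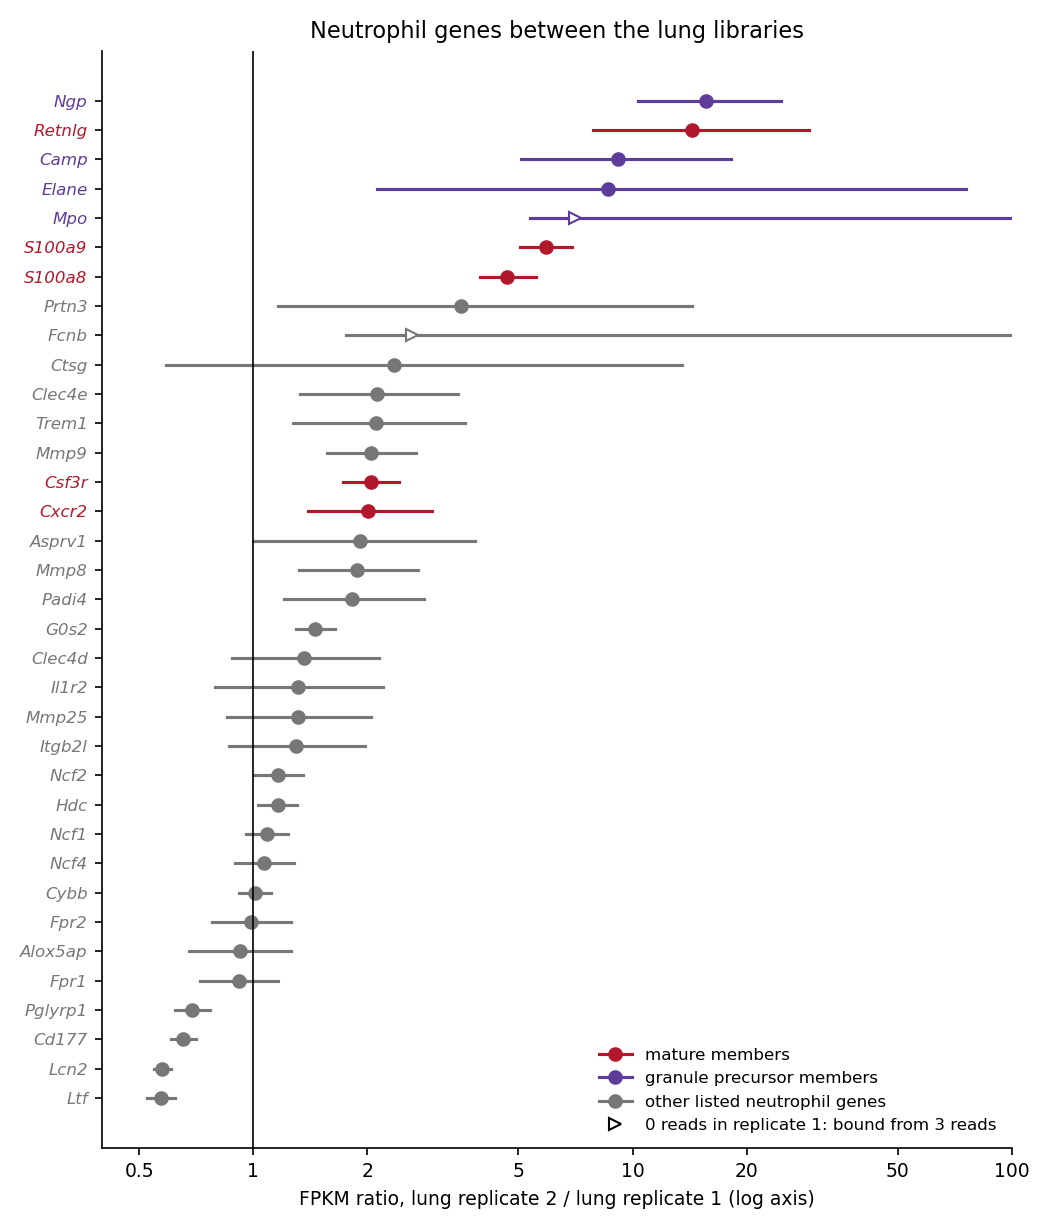
FPKM ratio of lung replicate 2 to lung replicate 1 (log axis) for the 9 members and 26 of the 27 other listed neutrophil genes with 10 or more lung reads. Points are ratios, lines are exact 95% counting intervals, and open triangles are bounds for genes with 0 reads in replicate 1. Ngp, Retnlg, Camp, Elane and Mpo head the list, S100a9 and S100a8 follow, and the receptors Csf3r and Cxcr2 lie near 2 among the other neutrophil genes.

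The median ratio was 4.68 over the 5 mature members and 8.90 over the 4 precursor members with Mpo at its bound, a distance of 0.93 on the log2 scale. The classes overlapped, since Retnlg of the mature class lay above Camp, Elane and the bound of Mpo. Without Retnlg, a choice made after its value was seen, the mature median was 3.36 and the distance 1.41. The order depended on how low values were treated: on FPKM + 1 the medians were 4.53 and 4.18, and the distance reversed to -0.11. Summed over each class, mature FPKM was 68.4 in lung replicate 1 and 365 in replicate 2, and precursor FPKM 3.84 and 48.7, which are ratios of 5.34 and 12.7.

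Levels relative to Csf3r within each library also differed between the lung libraries. Ngp was 0.381 times the Csf3r level in lung replicate 1 and 2.92 times in replicate 2. Camp went from 0.307 to 1.38 times, Retnlg from 0.351 to 2.47 times and S100a9 from 6.88 to 19.9 times. Pairs of the same kind changed less: Csf3r was 3.83 and 3.88 times Cxcr2, and S100a9 was 1.54 and 1.94 times S100a8. Ngp was 1.24 and 2.11 times Camp. The FPKM values are per length, so these proportions compare levels between genes. Neutrophil number, RNA per neutrophil and the mix of maturation stages were not measured apart in these bulk libraries. What changed these proportions was not tested.

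Among 14540 genes with at least 50 reads over both lung libraries, Ngp ranked 4th and Retnlg 5th by this ratio. Camp ranked 9th, S100a9 16th, S100a8 20th, Csf3r 108th and Cxcr2 123rd, while Mpo and Elane had too few reads to be ranked. In this better-counted set 0.846% of genes were 2-fold or more higher in lung replicate 2. The 3 genes above Ngp were the immunoglobulin segments Igkv6-13, Ighv3-1 and Igkv2-112. The top 20 held 11 immunoglobulin variable segments, 5 members and 4 other genes. At the other end were Hoxa10, Ighv1-77, Hoxb8, Hoxc4 and Pou3f3.

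**Figure D3:**
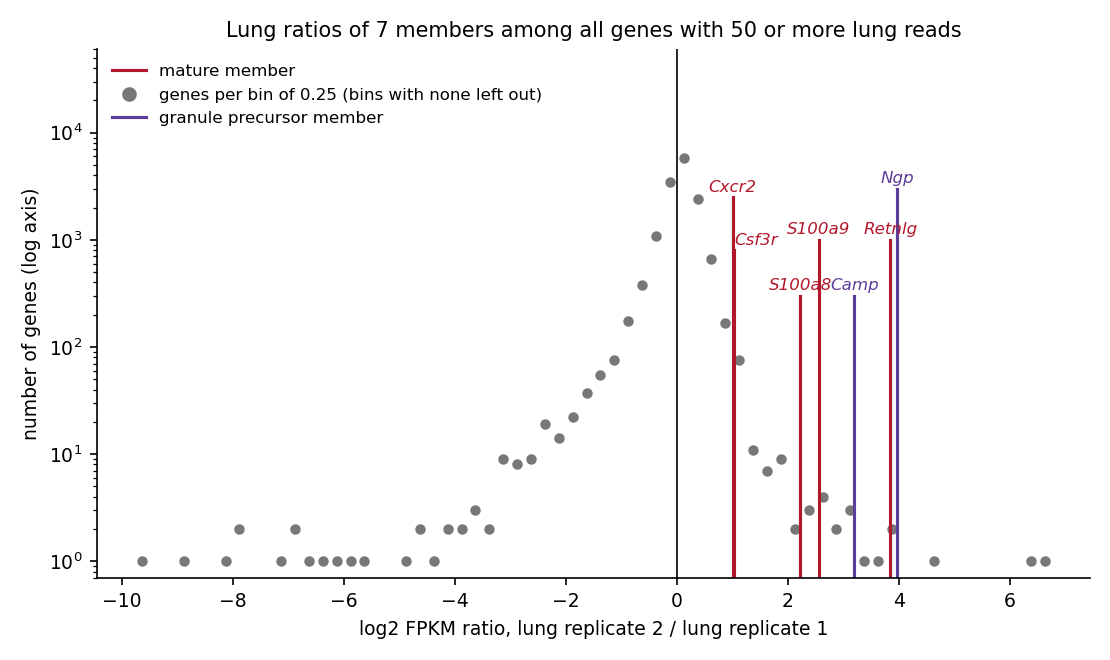
Number of genes (log axis) by log2 FPKM ratio of lung replicate 2 to lung replicate 1 in bins of 0.25, for 14540 genes with 50 or more lung reads and 0 counted as 1 read. Vertical lines mark the 7 members with enough reads, and their heights carry no value. Most genes lie near 0, Csf3r and Cxcr2 at the edge of the main mass, and the other 5 members in the sparse upper tail.

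The ratio of replicate 2 to replicate 1 in the other tissues had few reads behind it. Csf3r, the only member with over 20 reads in the pair of libraries of each tissue, gave 1.02 in small intestine (0.513 to 2.06), 1.97 in liver (0.859 to 4.92) and 0.929 in kidney (0.346 to 2.40). Retnlg in small intestine gave 0.551 (0.221 to 1.31). All of these intervals held 1. S100a9 in liver went from 9 reads to 2, a ratio of 0.197 (0.0207 to 0.953), and S100a8 in liver went from 0 to 6 reads.

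A list of 31 other neutrophil genes, which hold further granule, surface and cytosol genes, did not all move the same way between the lung libraries. Of the 27 with at least 10 lung reads, 11 had counting intervals above 1, 4 below 1 and 12 that held 1, and the median ratio was 1.31 with Fcnb at its bound. Over all 18364 genes with at least 10 lung reads, the interval lay above 1 in 20.4% and below 1 in 11.0%. The largest ratios were in granule genes with few reads: Prtn3, the proteinase 3 gene, had 4 and 18 reads (3.54 times) and Fcnb, a ficolin of secondary granules, 0 and 10 reads. Clec4e, Trem1 and Mmp9, an innate lectin, an activating receptor and a gelatinase, were 2.12, 2.11 and 2.04 times higher in replicate 2, close to the ratios of Csf3r and Cxcr2. The oxidase subunits Ncf1, Ncf4 and Cybb, which macrophages also express, had ratios of 1.09, 1.07 and 1.01, and the formyl peptide receptors Fpr1 and Fpr2 of 0.916 and 0.988.

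The 9 other secondary and tertiary granule genes were divided. Their summed FPKM was 274 in lung replicate 1 and 174 in replicate 2, a ratio of 0.635, whereas their median ratio was 1.30 with Fcnb at its bound from 3 reads, with 3 counting intervals above 1, 4 below 1 and the remaining 2 holding 1. Mmp8, a collagenase, was 1.88 times higher in replicate 2 (1.32 to 2.71) beside Mmp9 and Fcnb, and Itgb2l and Mmp25 had ratios of 1.30 and 1.31. The 4 that were lower in replicate 2 had the most reads. Ltf, the lactoferrin gene, was 38.9 FPKM in lung replicate 1 and 22.2 FPKM in replicate 2, a ratio of 0.571 (0.525 to 0.621). Lcn2, the lipocalin that binds bacterial siderophores, was 133 and 76.4 FPKM, a ratio of 0.576 (0.546 to 0.606). The surface protein Cd177 was 55.5 and 36.3 FPKM, and Pglyrp1, a peptidoglycan recognition protein, was 41.0 and 28.3 FPKM. Airway epithelium is also known to make lactoferrin and lipocalin. Scgb1a1, an airway secretory cell gene, was 44164 FPKM in lung replicate 1 and 59746 FPKM in replicate 2. The part of airway cells in the values of Ltf and Lcn2 was not tested.

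Ligands and regulators of the members were described in the same way. Of the ligands of Cxcr2, Cxcl5 was 17.5 and 11.4 FPKM in the lung libraries and Ppbp, which platelets carry, 10.8 and 23.7 FPKM. Csf3, which encodes the ligand of Csf3r, had 0 reads and 1 read. The receptors that bind calprotectin, Ager and Tlr4, were 744 and 928 FPKM and 2.23 and 2.49 FPKM; Ager is mainly an alveolar type 1 cell gene. Cebpe, a transcription factor of secondary granule genes, had 4 and 13 reads, and Gfi1, a repressor of the same lineage, 18 and 22. Of the 10 listed genes of neutrophil retention and release, the 9 with lung reads had a median ratio of 1.02, between 0.862 for Selp and 1.85 for Cxcr4. Itgam was listed at 0 in both lung libraries, which may be a failed estimate and is not taken as absence of its mRNA. Cxcr4, the receptor that retains neutrophils in marrow and is also on lymphocytes, was 30.1 and 55.7 FPKM, 1.85 times higher in replicate 2 (1.67 to 2.05).

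Marker lists of other cells give the scale of the differences between the lung libraries. The summed FPKM ratio was 1.15 for 7 monocyte genes, 0.836 for 6 alveolar macrophage genes (6 of 6 intervals below 1, median 0.753), 1.21 for 5 endothelial genes and 0.867 for 5 alveolar type 2 genes. It was 1.56 for 5 B cell genes (5 intervals above 1), 1.34 for 8 T and NK cell genes (5 above 1), 1.63 for 6 platelet genes (5 above 1) and 1.30 for 6 erythroid genes (6 above 1). Cycling genes gave 0.956, and haematopoietic progenitor genes 1.11. Alveolar type 2 genes, which define the organ, summed to 16391 and 14206 FPKM in lung and to no more than 26.1 FPKM in any other library. Immediate early and stress genes summed to a ratio of 1.11, with Egr1 at 2.08 (1.74 to 2.49) and Junb at 1.87 (1.66 to 2.12) against Jun at 0.980 and Hspa1b at 0.872, and Nr4a1, another early response gene, was 3.42 times higher. The part of the blood, lymphocyte and early response genes in the members' ratios was not tested.

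**Figure D4:**
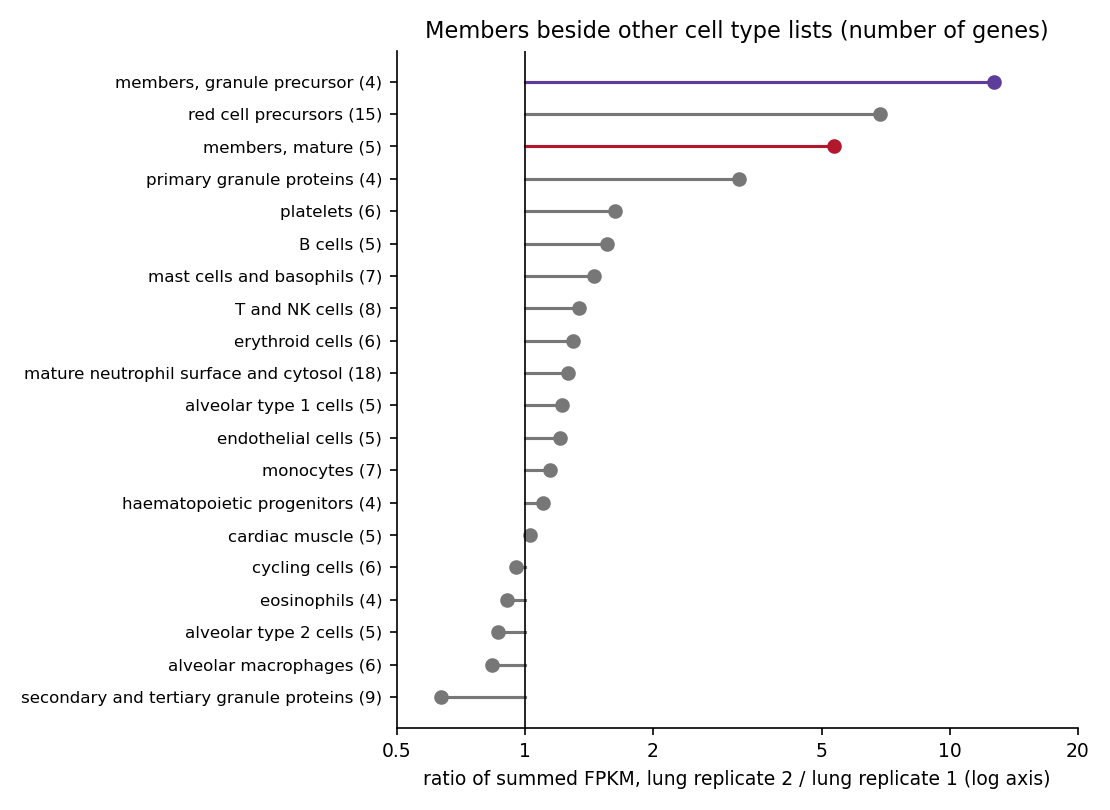
Ratio of summed FPKM, lung replicate 2 over lung replicate 1 (log axis), for the members, for the other neutrophil gene lists and for marker lists of other cell types, with the number of genes in brackets. The precursor members (12.7) and mature members (5.34) lie far from most lists. Most lists fall between 0.635 for the other secondary and tertiary granule genes and 1.63 for platelets. The other primary granule genes lie at 3.20, from sums of only 0.570 and 1.82 FPKM that rest on few reads. The red cell precursor list (6.86), chosen after its leading genes were seen, lies between the member classes.

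Lung was then compared with the mean of the other 3 tissues, by limma on log2(FPKM + 1) over 16328 genes. In this fit 40.7% of genes were called higher in lung, and the median log2 difference of all genes was 0.82, which fell to -0.02 under median-of-ratios scaling with 14.6% called higher. Of the 9 members, 7 reached the minimum level for the fit, and 6 of those did so only with the help of the lung libraries. Their log2 differences, given as a description, were 5.91 for S100a9, 5.43 for S100a8, 3.24 for Ngp, 2.68 for Csf3r, 2.62 for Retnlg, 2.60 for Camp and 1.54 for Cxcr2. These values moved with the lung library used. Without lung replicate 2 they were 4.65 for S100a9, 4.34 for S100a8, 1.53 for Ngp, 2.22 for Csf3r, 0.99 for Retnlg, 1.30 for Camp and 1.21 for Cxcr2. Without lung replicate 1 they were 7.18, 6.52, 4.96, 3.13, 4.26, 3.90 and 1.88 in the same order. These shifts restate the ratio between the lung libraries, on which the members were chosen. Without lung replicate 2, Ngp and Retnlg fell most, and Camp and S100a9 fell about alike. All 7 stayed positive under median-of-ratios scaling, from 4.88 for S100a9 to 1.84 for Csf3r and a lower value for Cxcr2.

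Of the 31 other neutrophil genes, 20 passed the filter, 17 were called higher in lung and 0 lower, with a median log2 difference of 2.44. Of the 20, 8 passed only with the help of the lung libraries. With no filter 17 of 31 were called higher, against 22.1% of all genes, and under median-of-ratios scaling 14 of 20. The median log2 difference of these neutrophil genes fell to 1.71 with no filter and to 1.55 under median-of-ratios scaling. Lcn2 (log2 difference 5.66 ± 0.22 SE, adjusted p = 7.56e-07) and Cd177 (5.10 ± 0.18, adjusted p = 5.89e-07) had the largest differences by this limma fit with Benjamini-Hochberg adjustment. Fpr2, at 2.94 ± 0.17 (adjusted p = 3.98e-06), was also higher in lung. Mmp9 was called at 1.20 ± 0.23 (adjusted p = 0.00207) but not under median-of-ratios scaling nor without lung replicate 2. Il1r2, Asprv1 and Itgb2l were not called, at log2 differences of 0.87, 0.82 and 0.08.

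The genes whose profiles over the 8 libraries were most like the members were mostly genes of few reads. For the mean of the mature members these were Mir3079, Gm43992, Cd300lb, 4930535L15Rik and Ccdc154, with Pearson r of log2(FPKM + 1) between 0.996 and 0.997 over 8 libraries. Cd300lb, an activating receptor of myeloid cells, was 1.12 and 2.18 FPKM in lung, from 32 and 79 reads. For the precursor members they were Gm12469, Efcab10, Mir7007, Gm9733 and 4930535L15Rik, with r between 0.968 and 0.982. Gm12469 was 2.47 and 7.39 FPKM in lung and between 1.55 and 2.13 FPKM elsewhere, so that only lung replicate 2 stood clear of the rest. Correlations over 8 libraries of which few are high say little, and 4930535L15Rik, in both groups, had 6 and 20 lung reads.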

How the data were processed

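Samples were grouped by tissue and numbered by replicate as their titles give. The authors mapped reads to GRCm38 with STAR (version 2.5.3a per the labels) and deposited FPKM values, made by the paper's methods with the fpkm function of DESeq2 and named by gene symbol. Per-gene length and library size enter these FPKM values, so a wrong exon length scales a gene equally in every library and cancels in ratios. All 8 columns were matched to a sample by name.

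Reads were recovered from FPKM steps with GENCODE M21 exon lengths (99.3% of symbols matched 1 gene). Of low values, below 50 reads, 94.5% to 96.1% per library were whole within 0.02 reads. Retnlg became whole after its length was scaled by 1.03. Ratio intervals are exact conditional (Clopper-Pearson) 95% limits, and bounds use a floor of 3 reads.

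Differences of lung from the average of the 3 remaining tissues were fitted with limma 3.58.1 in R 4.3.3 (lmFit, eBayes with a trend) on log2(FPKM + 1), all 8 libraries, genes that reached an FPKM of 1 in 2 libraries or more, Benjamini-Hochberg adjustment, and calls at an adjusted p of 0.05 and a log2 difference of 1. A fold on this scale understates low genes. No count model was run, since the values are not counts. The step was tested on simulated data. Python 3.11.15, numpy 2.4.6, pandas 2.3.3, scipy 1.17.1 and matplotlib 3.10.9 were used. Start regions came from RefSeq, in which all 9 members matched. Protein sequences were not used here.

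The members and lists were chosen with earlier results of these data known. The genes named were the members, the listed genes, the 5 genes most like each class, and the 5 highest and 5 lowest lung ratios. Retnla, Retn, Retnlb, Il1b, Ifitm6, Nr4a1, Kap, Alb and the red cell precursor genes were named after values had been seen. Some listed genes are not reported here by name. Alternatives were another pseudocount, no filter, median-of-ratios scaling, no trend, a replicate block, each library left out, single tissues as the comparison, and, chosen after seeing the data, leaving out Retnlg or Mpo.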

Additional observations from a re-analysis of the deposited data

How the results depend on the processing

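Counting error, not spread between mice, was all that could be given for the lung ratio, since each side was 1 library, and Mpo and Elane rested on under 30 reads each. Median-of-ratios scaling moved the genes called higher in lung from 6652 to 2387 and those called lower from 1349 to 2616. With at least 50 lung reads, 123 genes in place of 421 were 2-fold or more higher in lung replicate 2 and 274 in place of 855 lower, over fewer genes. On FPKM + 1 the precursor median ratio was 4.18 and the distance between the classes reversed to -0.11, where the added constant pulls the ratios of low genes toward 1. Without Retnlg, chosen after seeing the data, the mature median was 3.36. The ratio of summed FPKM gave 12.7 for the precursor class and a distance of 1.25. The class medians have no interval of their own, and were called moved when they left the counting interval of S100a8 (3.95 to 5.57) or of Camp (5.08 to 18.2). The remaining alternatives kept the counts within 1.5 times and the medians within these limits.

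With each library left out in turn, genes called higher were between 6235 and 7053, genes called lower between 1314 and 1383, and the other neutrophil genes called higher between 16 and 18.

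With the replicate block in the model, 6658 genes were called higher and 1351 lower, and 17 of the other neutrophil genes were called higher. The tissues share mice, but the sources used here do not say whether a replicate number marks 1 mouse. Deviations of same-numbered libraries correlated between -0.217 and 0.053 over the pairs of tissues. Such correlations between different organs cannot show whether same-numbered libraries came from 1 mouse. The numbers were not taken as pairs because their meaning is not given.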

Other observations

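Red cell precursor genes also differed between the lung libraries. Slc4a1, the band 3 anion exchanger of the red cell membrane, had 7 reads in lung replicate 1 and 103 in replicate 2, and was the first gene below Ngp and Retnlg when genes were ranked by their lung ratio. A list of 15 such genes, written after values of its members had been seen, was higher in replicate 2 in all 15. They had only 60 and 413 reads in sum. For scale only, the counting interval lay above 1 in 14 of the 15, and in 20.4% of all genes with 10 or more lung reads. Rhag and Kel, a member of the Rh complex and the Kell blood group protein, had 0 reads in replicate 1 and 22 reads each in replicate 2. Hemgn, a nuclear protein of erythroid cells, had 2 and 39 reads. The summed FPKM was 1.48 and 10.1, a ratio of 6.86, beside 1.30 for the erythroid list, which haemoglobin genes dominate. Slc4a1 is also a kidney gene, with 530 and 247 reads in the kidney libraries. As the list was chosen after its values were seen, no test was made.

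Il1b, the interleukin 1 beta gene, was 2.63 and 8.02 FPKM in the lung libraries, and Ifitm6, an interferon-induced gene of myeloid cells, 2.15 and 8.09 FPKM. Both were named after their values were seen.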
